A study of Mus musculus with 12 samples.

Results

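Genes of hepatic stellate cells, collagens and matrix remodelling were followed in RNA-seq libraries from 12 mouse livers. The set is a list of 35 gene names, all of which were found among the 27304 genes of the deposited count table. They fall into 5 fibrillar collagen genes, 7 collagen genes of networks, beaded filaments and fibril surfaces, 7 genes of stellate or contractile cells, 7 of matrix glycoproteins and proteoglycans, 7 of matrix enzymes and their inhibitors, and 2 of TGF-beta signalling. The mice were labelled Apoe-/- (control) or Apoe-/-AhR-/- (called Ahr-null here, after that label), so per the labels every mouse lacked apolipoprotein E, a carrier of plasma lipoproteins. All had been on the diet named HFD for 12 weeks. Each genotype had 3 males and 3 females, with 1 liver per library. The strain, the alleles, the age at the start of the diet and the housing are not stated in the sources at hand. The whole liver was sampled, so fewer cells of a type and less RNA per cell cannot be told apart in any value below.

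Hepatic stellate cells lie between hepatocytes and the sinusoids and store vitamin A while quiescent. On activation they turn into myofibroblasts, which are contractile and are the main source of the fibrillar collagen laid down in a scarring liver, and TGF-beta is the best known signal for that change. Fibroblasts of the portal tract, smooth muscle of vessels and sinusoidal endothelium add further matrix proteins. The aryl hydrocarbon receptor, encoded by Ahr, is a transcription factor that is activated by ligands such as aromatic pollutants and dietary indoles, and livers of mice that lack it are known for portal fibrosis.

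The libraries held 9794253 to 18924880 counts, and levels are given as CPM, the counts divided by the library total and brought to a common scale by TMM, which corrects for differences in composition between libraries. The Ahr transcript was not lower in the livers labelled Ahr-null. It had 15.4, 25.0 and 20.1 CPM in male controls, 24.5, 20.2 and 23.9 CPM in the Ahr-null males, 14.7, 19.8 and 12.4 CPM in female controls and 19.5, 16.3 and 13.7 CPM in the Ahr-null females. A count over the whole gene does not show the loss of an exon. Cyp1a2, a classical target gene of the receptor, had 452 to 1170 CPM in the 6 controls and 47.0 to 217.2 CPM in the 6 livers labelled Ahr-null, with no overlap. Livers are named by group and replicate number, as in male control 1. Transcripts of nervous tissue were present in that library and in Ahr-null female 1. The 30 markers of neurons and glia summed to 465 and 763 CPM there and to 66.0 to 122.2 CPM elsewhere, and Snap25, a synaptic protein gene, had 21.7 and 53.1 CPM against 0 to 0.11 CPM. Ahr-null female 1 also had less Xist than the other 5 female libraries (154.6 against 679 to 1292 CPM) and 2.02 CPM of the Y-linked Kdm5d, against at most 0.21 CPM in those 5 and 5.21 to 8.61 CPM in males, so it went partly against its label. Pearson correlations of log2 CPM between that liver and its group mates were 0.822 and 0.826, while all other pairs within groups reached 0.946 to 0.987. The 13 mitochondrially encoded genes took 46.7% to 69.8% of the counts in controls and 30.5% to 59.8% in Ahr-null livers. The part of these library differences in the results below was not tested. Results were therefore also computed without the 2 libraries with neural transcripts.

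Most of the matrix genes had a higher mean level in the livers labelled Ahr-null, but few passed the test. Of the 35 genes, 34 had enough counts to be tested, and 2 of these, Col5a2 and Col6a2, rose at an adjusted p under 0.05 in the genotype difference averaged over the sexes (edgeR quasi-likelihood test with Benjamini-Hochberg adjustment over 13641 genes). None fell and 32 did not pass. Over all genes tested 72 rose and 72 fell, which is 1.06% called in either direction and 0.528% called as higher. The log2 fold change, Ahr-null minus control, was above 0 in 32 of the 34 genes (94.1%) and in 54.2% of all genes tested. Its median was 0.49 over the 34 genes and 0.04 over all genes. An unadjusted p under 0.05 was reached by 11 of the 34 (32.4%) and by 15.3% of all genes. With libraries scaled by their size alone, the median over all genes moved to 0.53 and that of the 34 genes to 1.06, so that the distance between them was 0.52 in place of 0.46. That scaling called 12 of the 34 genes as higher, and of its 1053 calls over all genes (7.72%) 986 were higher.

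**Figure D1:**
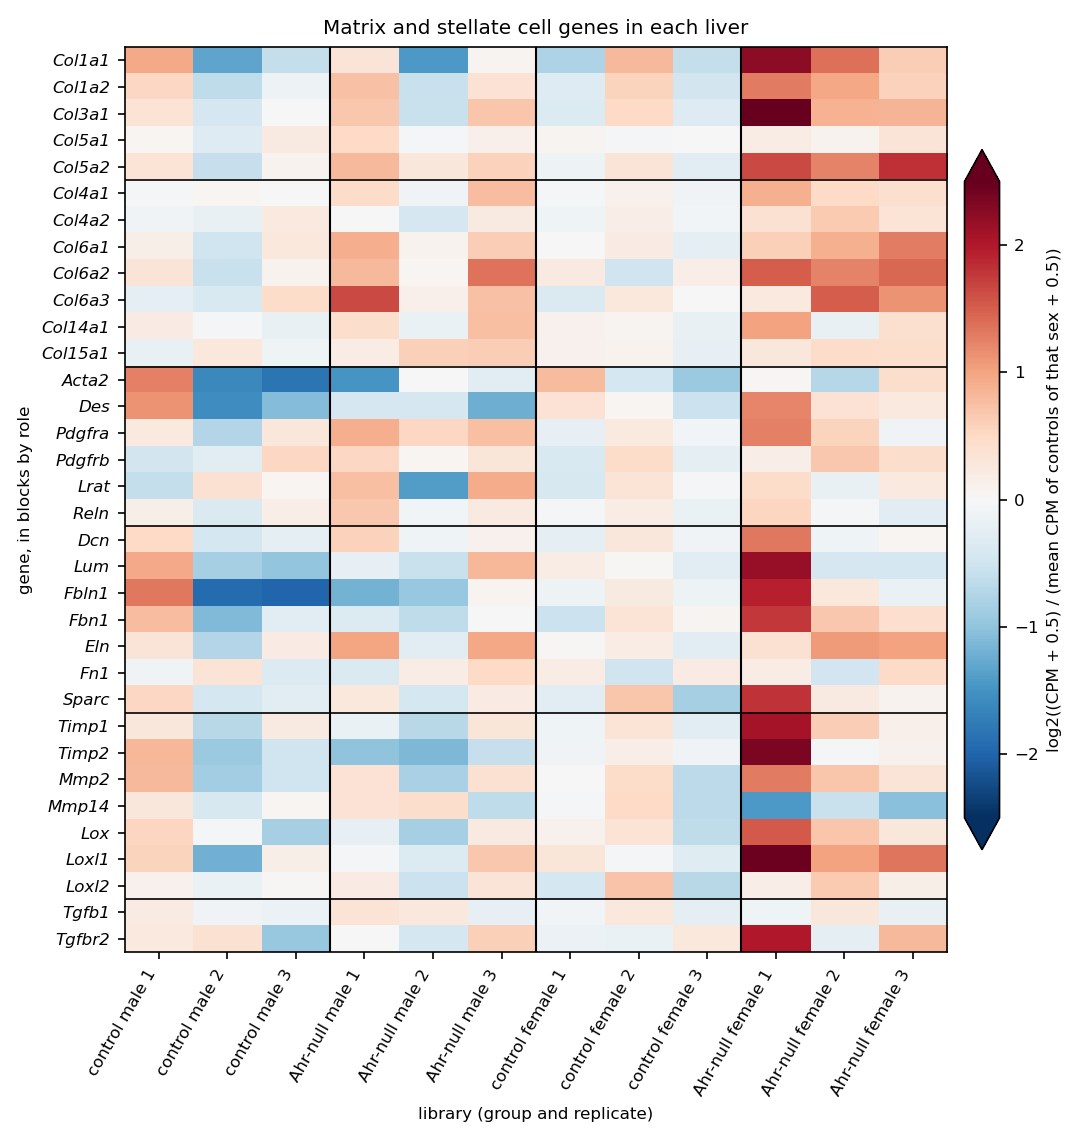
Level of each of the 34 tested genes (rows, in blocks by role) in each of the 12 livers (columns), as log2 of CPM plus 0.5 over the mean of the controls of that sex plus 0.5, with red above and blue below that mean. Ahr-null female 1 shows the deepest red, with a median of 1.24 over the genes, and Ahr-null male 2 is mostly blue, with a median of -0.30.

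The livers of a group did not move alike, as the map of all genes by liver shows. Set against the mean of the controls of the same sex, the median over the 34 genes was 0.35, -0.30 and 0.34 on the log2 scale in the Ahr-null males 1, 2 and 3, and 1.24, 0.54 and 0.37 in the Ahr-null females 1, 2 and 3. Single controls spread between -0.43 (male replicate 2) and 0.30 (male replicate 1), while the same median over all genes lay between -0.05 and 0 in every library. Ahr-null male 2 stood inside the range of the control males for 21 of the 34 genes (61.8%, against 48.3% of all genes tested). It stood above that range for 4 (11.8%, against 25.8%) and below it for 9, as it did for 3528 of all 13641 genes. In each of the other Ahr-null males 15 genes were inside the range (44.1%), 17 were above it (50%) and 2 were below it. Over all genes tested 43.7% and 37.2% were inside it and 27.8% and 29.9% above it in replicates 1 and 3. The mitochondrial share was 38.9%, 52.7% and 30.5% in the Ahr-null males 1, 2 and 3, against 46.7% to 57.3% in control males. In the Ahr-null females 1, 2 and 3 it was 39.8%, 51.8% and 59.8%, against 56.5% to 69.8% in control females. The part of this share in the levels of the matrix genes was not tested. Ahr-null female 1 was the highest of all 12 libraries for 19 of the 34 genes (55.9%), and for 27.7% of all genes tested.

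The fibrillar collagens form the rope-like fibres of scar and vessel wall. All 5 had a positive averaged fold change, with a median of 0.71 on the log2 scale, 1 of them rose and 4 did not pass. Col5a2 (ENSMUSG00000026042, GRCm38 chromosome 1, 45374321 to 45503282, minus strand), a chain of type V collagen, which sets the width of type I fibres, was the one that rose. Its levels were 4.97, 2.40 and 4.08 CPM in male controls and 7.10, 4.73 and 5.92 CPM in the Ahr-null males. In females they were 3.80, 5.35 and 3.41 CPM in controls and 14.2, 10.6 and 16.1 CPM in Ahr-null livers. The female groups lay clearly apart, while among males the lowest Ahr-null liver, replicate 2, fell within the controls. The averaged fold change (log2) was 1.17 ± 0.22 (SE; edgeR adjusted p = 0.0277), and the call was lost in 9 of the 12 fits that each left out 1 library (adjusted p up to 0.123), the ones without male control 2 or 3, any control female, Ahr-null male 1 or 3, or Ahr-null female 2 or 3. Without the 2 libraries with neural transcripts it was 1.29 ± 0.23 (edgeR adjusted p = 0.00896).

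Col3a1, the type III collagen of pliable tissue, had the highest averaged fold change of the 34 genes, at 1.24 ± 0.41 on the log2 scale (edgeR adjusted p = 0.18), and it rests largely on 1 liver. It stood at 42.9, 25.3 and 33.5 CPM in male controls, 54.4, 22.9 and 55.0 CPM in the Ahr-null males, 21.2, 38.0 and 21.4 CPM in female controls and 246.2, 49.7 and 48.6 CPM in the Ahr-null females. Every Ahr-null female lay above every control female, but replicate 1 stood far above the others. Without that library the averaged fold change (log2) was 0.64. The ratio of Col3a1 to Col1a2 counts was 2.44 in Ahr-null female 1 and 0.62 to 1.02 in the other 11 libraries.

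Type I collagen, the main scar protein, is built from the chains of Col1a1 and Col1a2. Col1a2 had 59.9, 26.3 and 38.0 CPM in male controls, 69.4, 28.2 and 53.7 CPM in the Ahr-null males, 32.6, 60.4 and 29.5 CPM in female controls and 101.0, 80.3 and 60.9 CPM in the Ahr-null females. The female groups were separated by a narrow gap, and the male groups overlapped. Its averaged fold change (log2) was 0.63 ± 0.29 (edgeR adjusted p = 0.321). Col1a1 varied more within each group, from 15.9 to 78.6 CPM in male controls and from 39.2 to 123 CPM in the Ahr-null females (0.71 ± 0.46, edgeR adjusted p = 0.505). The ratio of Col1a1 to Col1a2 counts was 1.31 in male control 1 and 1.22 in Ahr-null female 1, the 2 libraries with neural transcripts, against 0.45 to 0.84 elsewhere. Col5a1, the partner chain of Col5a2, had group means of 10.7 to 12.9 CPM (0.21 ± 0.16, edgeR adjusted p = 0.572).

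The second group of collagens makes the sheets of basement membranes (types IV and XV), the microfibrils around cells (type VI) and molecules on fibril surfaces (type XIV). All 7 genes had a positive averaged fold change with a median of 0.54, 1 of them rose and 6 did not pass. Summed, they gave 59.9 to 76.2 CPM in male controls and 65.1 to 76.3 CPM in female controls. In Ahr-null females the sum was 115.0 to 122.0 CPM, with all 3 livers close together, and in the Ahr-null males it was 119.9, 66.5 and 112.8 CPM in replicates 1, 2 and 3. Only the male replicate 2 was at the level of the controls. No test was run on the sum.

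Col6a2 (ENSMUSG00000020241, chromosome 10, 76595762 to 76623630, minus strand), one of the 3 chains of type VI collagen, was the one that rose. It had 5.22, 2.63 and 4.40 CPM in male controls and 7.58, 4.27 and 11.2 CPM in the Ahr-null males. The levels were 4.83, 2.73 and 4.58 CPM in female controls and 12.4, 10.3 and 11.9 CPM in the Ahr-null females. Again the females separated with a wide gap and the males overlapped through replicate 2. The averaged fold change (log2) was 1.21 ± 0.26 (edgeR adjusted p = 0.0475). The call was kept in 2 of the 12 fits that left out 1 library, those without Ahr-null male 2 and without Ahr-null female 1 (adjusted p up to 0.158 in the others), and without both libraries with neural transcripts it was 1.30 ± 0.27 (edgeR adjusted p = 0.0226).

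The partner chains had similar sizes of difference. Col6a1 had 11.03, 6.89 and 12.0 CPM in male controls and 19.2, 10.6 and 15.6 CPM in the Ahr-null males, and 9.32, 10.7 and 7.74 CPM in female controls against 14.3, 17.4 and 23.2 CPM in the Ahr-null females. Its averaged fold change (log2) was 0.80 ± 0.21 (edgeR adjusted p = 0.098), and it passed without the 2 libraries with neural transcripts (0.93 ± 0.21, edgeR adjusted p = 0.0331). Col6a3 (1.05 ± 0.30, edgeR adjusted p = 0.125) had 10.8, 9.60 and 17.5 CPM in male controls, 40.8, 13.8 and 21.4 CPM in the Ahr-null males, 7.59, 12.0 and 9.99 CPM in female controls and 11.8, 28.9 and 22.04 CPM in the Ahr-null females. Here the highest liver was Ahr-null male 1, and Ahr-null female 1, which was high for most other genes, lay within the control females. DESeq2, run as an alternative, called all 3 chains of type VI collagen and Col5a2, and 664 genes (4.87%) over all genes. Among the remaining genes of the group Col4a1 had an averaged fold change (log2) of 0.54 ± 0.18 (edgeR adjusted p = 0.176), and Col4a2, Col14a1 and Col15a1 had 0.22, 0.45 and 0.50.

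**Figure D2:**
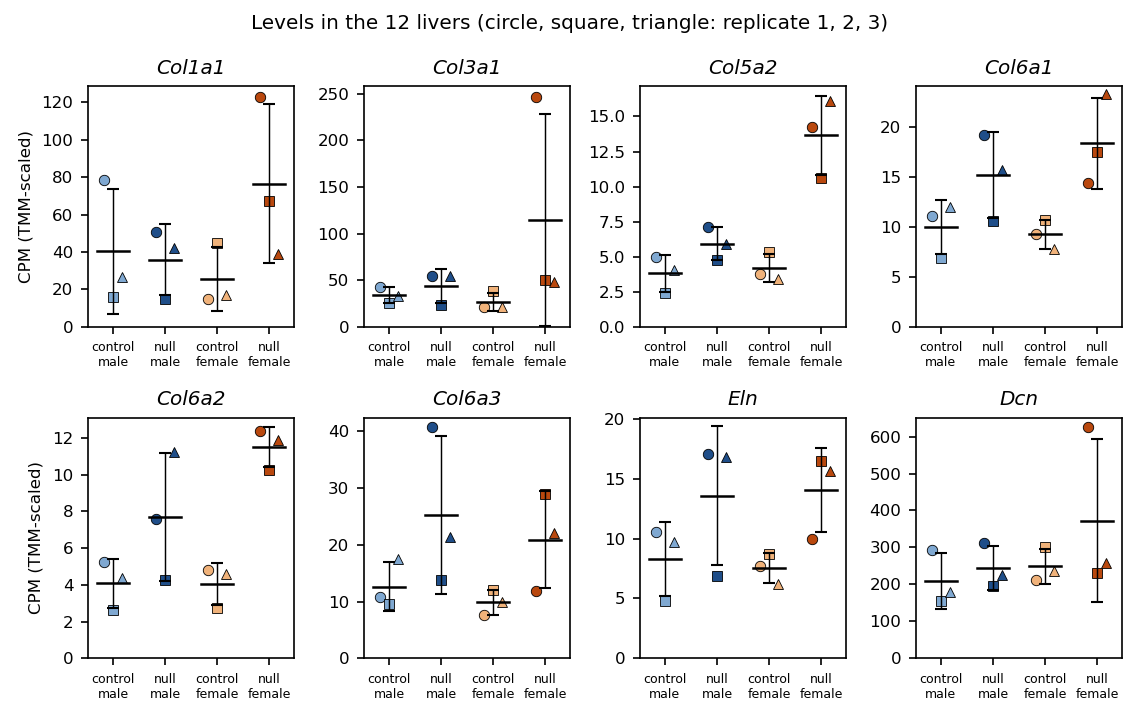
CPM after TMM scaling of 8 of the genes in the 4 groups of 3 livers, with replicates 1, 2 and 3 as circle, square and triangle, the group mean as a line and the SD as a bar. Col5a2 and Col6a2 separate the female groups, with Ahr-null livers at 10.6 to 16.1 CPM and 10.3 to 12.4 CPM, while Ahr-null female 1 lies far above all other livers for Col3a1 and Dcn.

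Several of these collagen genes are neighbours. Col3a1 and Col5a2 point toward each other on chromosome 1 with 24.6 kb between them, Col6a2 and Col6a1 lie 85.2 kb apart on the same strand of chromosome 10, and Dcn and Lum lie 47.0 kb apart on that chromosome. Col4a1 and Col4a2 start head to head on chromosome 8 and their annotated genes overlap by 22 bases. In the 12 libraries there were 0.85 to 1.71 counts of Col4a1 per count of Col4a2. The ratio ranged more widely for the other collagen neighbours, from 1.16 to 3.92 for Col6a1 to Col6a2 and from 3.01 to 17.3 for Col3a1 to Col5a2. RefSeq promoter windows were at hand for 22 of the 35 genes. In the 250 bases before the start the core of the AhR binding site, GCGTG, was searched together with its reverse complement and was found in 9 of the 22 windows (40.9%) and in 28.2% of 32851 mouse windows of that length. The CCAAT box, searched likewise on both strands, was found in 8 of 22 (36.4%) and in 33.8% of all windows. CAGAC, the core of the box bound by the Smad proteins of TGF-beta signalling, was likewise found in 10 of 22 (45.5%) and in 42.2% of all windows. The GC content of the members' windows had a median of 58.8%, against 52.4% over all windows. No binding was measured here, so a match is only a string of letters in the window. The following 3 windows are shown because Col3a1 and Col6a3 had 2 of the larger collagen differences and because Tgfbr2, the receptor gene of the set, holds all 3 motifs. They are written 5′ to 3′ on the strand of the gene, end at the base before the RefSeq start (GRCm38.p6), and carry all matches to the 3 motifs, on both strands, in capitals. They cover chr1:45311288-45311537 (plus strand), chr1:90843972-90844221 (minus strand) and chr9:116175364-116175613 (minus strand).
Col3a1: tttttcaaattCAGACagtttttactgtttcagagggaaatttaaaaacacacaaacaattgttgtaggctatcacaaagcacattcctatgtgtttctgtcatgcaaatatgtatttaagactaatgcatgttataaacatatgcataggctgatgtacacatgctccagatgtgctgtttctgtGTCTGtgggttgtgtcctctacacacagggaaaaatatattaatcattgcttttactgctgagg
Col6a3: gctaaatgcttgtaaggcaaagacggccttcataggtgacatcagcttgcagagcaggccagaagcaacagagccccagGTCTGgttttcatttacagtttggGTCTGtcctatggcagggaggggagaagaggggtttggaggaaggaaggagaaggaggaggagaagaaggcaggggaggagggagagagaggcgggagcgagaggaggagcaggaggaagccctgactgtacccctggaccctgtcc
Tgfbr2: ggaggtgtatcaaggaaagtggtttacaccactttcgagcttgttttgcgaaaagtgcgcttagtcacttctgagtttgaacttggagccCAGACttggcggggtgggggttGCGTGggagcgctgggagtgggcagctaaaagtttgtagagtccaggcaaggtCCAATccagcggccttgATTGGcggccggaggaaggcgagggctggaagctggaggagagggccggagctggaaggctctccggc
The windows of Col3a1 and Col6a3 each hold 2 matches to the Smad box core and none to the AhR core or the CCAAT box. The Col3a1 window is poor in G and C (35.2%), the lowest value among the 22. The Tgfbr2 window holds 1 AhR core, 2 CCAAT boxes and 1 Smad box core. Of the 2 genes called in the averaged contrast, Col6a2 has a window, not shown, with 1 AhR core and 0 matches to the other motifs. For Col5a2 no window was at hand.

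Of the genes of stellate and contractile cells none of the 6 tested passed, 5 had a positive averaged fold change, and the median was 0.27. Pdgfra, a growth factor receptor of fibroblasts and stellate cells, had the smallest p. It stood at 3.70, 1.63 and 3.82 CPM in male controls, 6.16, 4.58 and 5.45 CPM in the Ahr-null males, 3.52, 5.02 and 3.91 CPM in female controls and 10.7, 6.38 and 3.87 CPM in the Ahr-null females. It was the only 1 of the 34 genes whose Ahr-null males all lay above the control males (0.78 ± 0.28, edgeR adjusted p = 0.205). Pdgfrb, the related receptor that drives stellate cell division, had 6.06, 6.97 and 12.4 CPM in male controls, 12.3, 8.76 and 10.5 CPM in the Ahr-null males, 5.80, 10.8 and 6.41 CPM in female controls and 8.63, 12.6 and 10.6 CPM in the Ahr-null females (0.39 ± 0.23, edgeR adjusted p = 0.45). Reln, an extracellular glycoprotein gene used as a stellate cell marker, had 21.9, 15.3 and 22.4 CPM in male controls, 32.2, 18.9 and 23.2 CPM in the Ahr-null males, 22.2, 25.9 and 20.2 CPM in female controls and 33.2, 21.9 and 19 CPM in the Ahr-null females (0.22 ± 0.20, edgeR adjusted p = 0.662). The female groups of these 3 genes overlapped.

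Acta2, the smooth muscle actin that marks myofibroblasts, had 1 of the 2 negative averaged fold changes of the set. Its levels were 40.8, 5.19 and 4.40 CPM in male controls, 5.76, 16.8 and 14.0 CPM in the Ahr-null males, 12.4, 5.02 and 3.41 CPM in female controls and 7.07, 4.03 and 9.61 CPM in the Ahr-null females. High values stood in 1 male control, 1 female control and 2 Ahr-null males, and the highest was male control 1, which also led for the intermediate filament gene Des (42.9 CPM against 6.27 to 27.6 CPM elsewhere). The averaged fold change (log2) of Acta2 was -0.24 ± 0.54 (edgeR adjusted p = 0.888) and turned to 0.66 without that library. Myh11, the heavy chain of smooth muscle myosin, was also highest in that library, at 24.2 CPM against 2.02 to 13.7 CPM elsewhere. Des had an averaged fold change (log2) of 0.02 ± 0.42, and Lrat, the enzyme that stores vitamin A in quiescent stellate cells, of 0.33 ± 0.36. Tagln, a smooth muscle gene, had 34 counts in all 12 libraries together, at most 9 in 1 library, and was not tested. An annotated antisense gene covers 62.4% of its exon bases, and without a known strand setting reads of the pair cannot be told apart.

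The matrix glycoproteins and proteoglycans decorate or link the fibres. All 7 had a positive averaged fold change (median 0.46) and none passed. Elastin, Eln, the protein of elastic fibres, came nearest. It had 10.5, 4.802 and 9.69 CPM in male controls, 17.04, 6.90 and 16.8 CPM in the Ahr-null males, 7.73, 8.73 and 6.24 CPM in female controls and 10.01, 16.5 and 15.6 CPM in the Ahr-null females. The female groups did not overlap, and male replicate 2 again lay within the controls. The averaged fold change (log2) was 0.80 ± 0.27 (edgeR adjusted p = 0.18). Leaving out both libraries with neural transcripts gave 1.02 ± 0.27 (edgeR adjusted p = 0.0579).

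Decorin, Dcn, a proteoglycan that coats collagen fibrils and binds TGF-beta, was the most abundant gene of the set. It had 294.2, 154.8 and 178.2 CPM in male controls, 311.9, 195.2 and 225.5 CPM in the Ahr-null males, 211.3, 302.1 and 234.9 CPM in female controls and 626.9, 231.2 and 258.2 CPM in the Ahr-null females. Ahr-null female 1 stood at more than the other 11 livers, which overlapped (0.40 ± 0.29, edgeR adjusted p = 0.557). Sparc, a collagen-binding protein of the matrix around cells, had the same shape, with 283 CPM in that library, 94.8 and 86.3 CPM in the other Ahr-null females and 45.4 to 130.9 CPM in female controls. Its males had 90.3, 46.3 and 51.2 CPM in controls and 75.2, 46.2 and 71.8 CPM in Ahr-null livers, and the averaged fold change (log2) of 0.49 ± 0.36 (edgeR adjusted p = 0.558) was 0.11 without Ahr-null female 1. Lum, a sister proteoglycan of Dcn, reached 11.3 CPM there against 0.51 to 3.37 CPM in the other livers. Fibronectin, Fn1, which hepatocytes also make for the plasma, had group means of 137.9 to 156.2 CPM and an averaged fold change (log2) of 0.13 ± 0.25. The averaged differences of Fbn1 (fibrillin of microfibrils) and Fbln1 (fibulin) were 0.46 ± 0.39 and 0.30 ± 0.79. For Fbn1, 20.1% of the exon bases are shared with a gene on the opposite strand, so its counts are uncertain.

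The enzymes that cross-link and cut the matrix, and their inhibitors, gave no call among 7 genes, of which 6 had a positive averaged fold change (median 0.54). Loxl1, which cross-links elastin and collagen, had 3.28, 0.62 and 2.36 CPM in male controls, 2.05, 1.55 and 3.63 CPM in the Ahr-null males, 1.52, 1.09 and 0.83 CPM in female controls and 8.54, 2.83 and 3.64 CPM in the Ahr-null females. The females separated and the males overlapped (1.16 ± 0.42, edgeR adjusted p = 0.205). Timp1, an inhibitor of matrix metalloproteinases that rises in scarring liver, was close to its detection limit, with 157 counts in the 12 libraries. It stood at 1.09, 0.31 and 1.02 CPM in male controls, 0.67, 0.31 and 1.10 CPM in the Ahr-null males, 0.35, 0.65 and 0.25 CPM in female controls and 3.40, 0.90 and 0.50 CPM in the Ahr-null females (0.87 ± 0.55, edgeR adjusted p = 0.489). Timp1 lies inside Syn1, a gene of neuronal synapses on the opposite strand. Syn1 had 14.7 CPM in Ahr-null female 1 and 6.99 CPM in male control 1 against 0.71 to 1.86 CPM elsewhere, and the part of Syn1 reads in the Timp1 counts was not tested.

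Mmp14, a membrane-bound protease that activates Mmp2, had the lowest averaged fold change of the 34 genes. It had 107.3, 66.8 and 91.2 CPM in male controls, 114.1, 119.9 and 56.5 CPM in the Ahr-null males, 185.7, 271.8 and 121.6 CPM in female controls and 70.7, 130.6 and 93.2 CPM in the Ahr-null females. Control females held the highest values, and the female groups overlapped through Ahr-null replicate 2 (-0.42 ± 0.27, edgeR adjusted p = 0.504). Its sign turned when libraries were scaled by size alone (0.10). Mmp2 itself, a gelatinase of stellate cells, had an averaged fold change (log2) of 0.54 ± 0.40. Timp2, a further inhibitor, was at 34.6 CPM in Ahr-null female 1 and 19.3 CPM in male control 1 against 4.65 to 7.39 CPM in the other 10 livers, and its averaged fold change (log2) of 0.19 ± 0.43 turned to -0.06 without those libraries. For Lox and Loxl2, further cross-linking enzymes, the averaged values were 0.65 ± 0.54 and 0.23 ± 0.28.

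The TGF-beta genes gave no call. Tgfb1, the ligand, had 16.8, 13.5 and 13.1 CPM in male controls, 18.5, 17.4 and 12.5 CPM in the Ahr-null males, 18.1, 22.9 and 16.2 CPM in female controls and 17.7, 23.3 and 16.7 CPM in the Ahr-null females (0.09 ± 0.17, edgeR adjusted p = 0.869). Its receptor gene Tgfbr2 had 4.29, 4.802 and 1.59 CPM in male controls, 3.51, 2.48 and 5.60 CPM in the Ahr-null males, 2.14, 2.07 and 2.997 CPM in female controls and 11.2, 1.99 and 4.58 CPM in the Ahr-null females. Replicate 1 was the highest of the Ahr-null females, and the groups overlapped in both sexes (0.71 ± 0.41, edgeR adjusted p = 0.434).

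**Figure D3:**
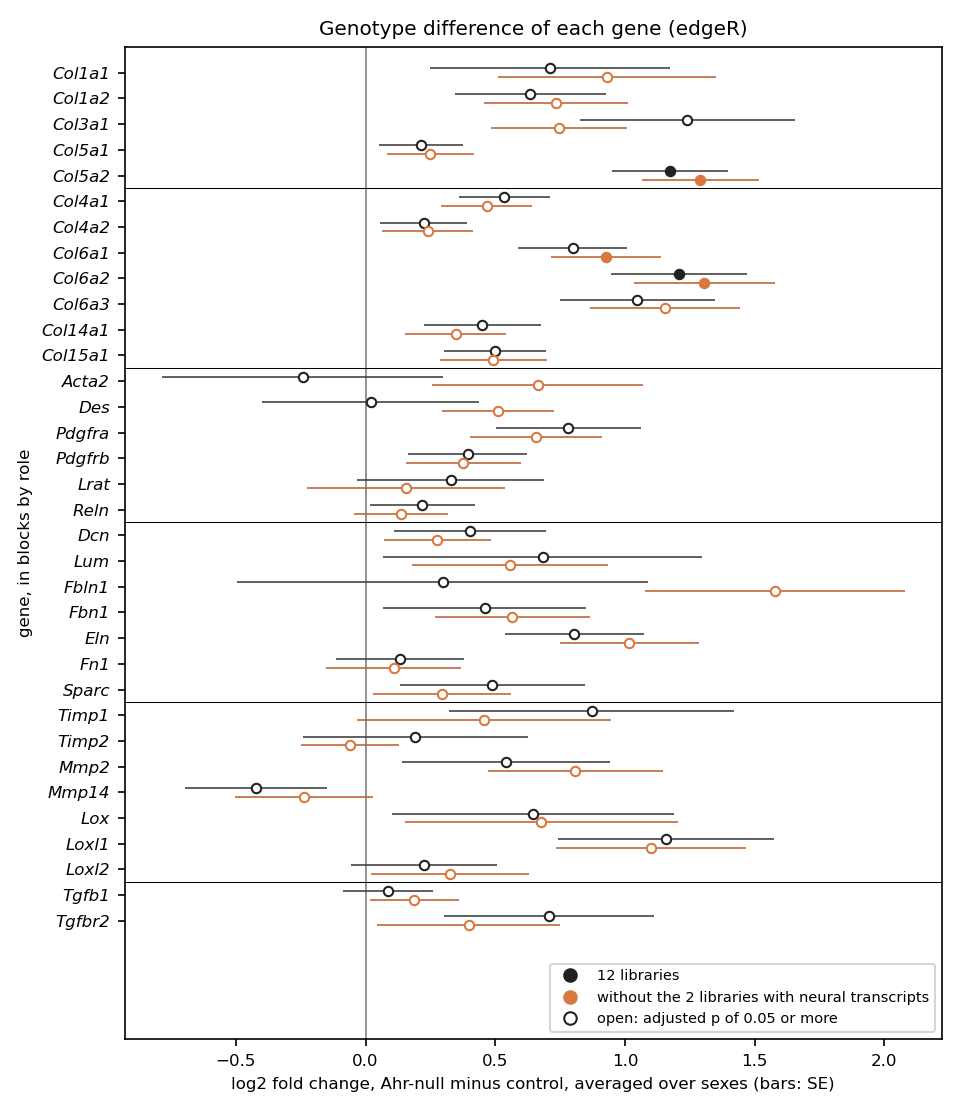
Averaged log2 fold change, Ahr-null minus control, of the 34 tested genes with its SE, over all 12 libraries (black) and without the 2 libraries with neural transcripts (orange), filled where the edgeR adjusted p is under 0.05. Col5a2 and Col6a2 are filled in both, Col6a1 only in orange, and Fbln1 and Acta2 move most between the fits, from 0.30 to 1.58 and from -0.24 to 0.66.

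Leaving out both libraries with neural transcripts moved single genes, as the plot of fold changes shows, but hardly the median of the set. The median over the 34 genes was 0.50 in place of 0.49, and 32 were positive in each fit. Left out singly, these libraries moved the median in opposite directions. It was 0.74 without male control 1, with 33 genes positive, and 0.30 without Ahr-null female 1, with 28 positive. Without both libraries Col5a2, Col6a1 and Col6a2 were called as higher, while 432 genes (3.14%) were called over all genes. Of the whole set, 0 to 4 genes were called when 1 library at a time was left out. There were 4 without Ahr-null female 1, where 663 genes (4.78%) were called over all genes, and 2 without Ahr-null male 2, where 288 (1.99%) were called. There was 1 without male control 1, where 71 (0.511%) were called, and 0 without each of the other 9, where 6 to 103 genes were called. The lowest median over the 34 genes among these fits was 0.30, without Ahr-null female 1, against 0.02 over all genes.

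In the sexes taken alone no gene of the set passed edgeR. In females the median log2 fold change was 0.92, against 0.06 over all genes, and 32 of 34 were positive (94.1%, against 54.9% of all genes). By edgeR 14 had an unadjusted p under 0.05 (41.2%, against 14.4% of all genes). Among these 14 was Mmp14, which was lower in the Ahr-null females (-0.975 ± 0.39, edgeR adjusted p = 0.277). Col5a2 had the smallest adjusted p (1.71 ± 0.32, adjusted p = 0.0639 by edgeR). Of all genes 0.161% were called in females. DESeq2 called Col3a1, Col5a2, Col6a2 and Loxl1 in females, with 3.6% of all genes called. Col5a2 was also called by limma with voom weights (0.257% of all genes) and by limma on the variance-stabilised values that the authors deposited (0.337%). In males the median was 0.22 against 0 over all genes, and 25 of 34 were positive (73.5%, against 50% of all genes). DESeq2 and limma called none in males. An unadjusted p under 0.05 was reached by 2 genes, Col6a2 and Col6a3 (5.88%), which is close to the 5.81% of all genes. Of all genes 0.0367% were called in males. Without the 2 libraries with neural transcripts, 1 of which is a male control and 1 an Ahr-null female, the median was 0.50 in males and 0.49 in females, with 32 and 29 of 34 genes positive. Col5a2 then passed in females (1.70 ± 0.31, edgeR adjusted p = 0.0224), with 1.71% of all genes called.

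The groups did not overlap, with the Ahr-null livers above the controls, for 12 of 34 genes in females, for Pdgfra alone in males and for none in both sexes. Over all genes tested these shares were 9.22%, 6.55% and 1.28%. The 12 were Col1a2, Col3a1, Col5a1, Col5a2, Col4a1, Col4a2, Col6a1, Col6a2, Col15a1, Fbn1, Eln and Loxl1, so that 9 of the 12 collagen genes were among them. None of the 34 lay wholly below the controls in either sex.

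With its sign, the log2 fold change was greater in females than in males for 26 of the 34 genes and for 7193 of all 13641 genes. Without the 2 libraries with neural transcripts it was greater in males for 15 of the 34. The difference between the sexes was not called for any gene of the set by edgeR, DESeq2 or either limma fit. Over all genes 0.00733% were called. By edgeR 3 genes had an unadjusted p under 0.05, Timp2, Col5a2 and Loxl1, with adjusted p = 0.999 for each. That is 8.82% of the 34, against 4.6% of all genes. The median of that difference, male minus female, was -0.48 over the 34 genes and -0.10 without the 2 libraries with neural transcripts. Between males and females no gene of the set was called by edgeR, either in controls or in Ahr-null livers. In controls 1 gene had an unadjusted p under 0.05 (2.94%, against 5.79% of all genes), and 0.352% of all genes were called. In Ahr-null livers 4 had an unadjusted p under 0.05 (11.8%, against 8.68% of all genes), and 0.279% of all genes were called. DESeq2 called Col5a2 as lower in the Ahr-null males than in the Ahr-null females, with 1.66% of all genes called. In controls the sex difference with the smallest p was that of Mmp14, at -1.13 ± 0.39 as male minus female (edgeR adjusted p = 0.598).

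Other genes of the same pathways were taken from lists chosen by function. Of 25 further TGF-beta genes tested none passed, and the median averaged fold change was 0.10. Ltbp3, which tethers latent TGF-beta, had 0.44 ± 0.22 and Itgav, an integrin chain that releases it, 0.68 ± 0.35 (edgeR adjusted p = 0.374 for each). Of 16 genes of collagen processing none passed, and the median was 0.47. The nearest were Pcolce, an enhancer of procollagen cleavage, with 0.85 ± 0.19 (edgeR adjusted p = 0.0533), and Adamts2, a procollagen protease, with 0.90 ± 0.25 (edgeR adjusted p = 0.117). In this list 8 of 16 genes had Ahr-null females wholly above control females, as did 9.22% of all genes tested.

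Among 12 further collagen genes Col27a1, a fibril-forming collagen of cartilage, fell and 11 did not pass. It had 311.7, 286.1 and 358 CPM in male controls, 71.1, 206.5 and 47.3 CPM in the Ahr-null males, 147.7, 277.4 and 184.8 CPM in female controls and 15.2, 60.4 and 54.8 CPM in the Ahr-null females. The Ahr-null livers lay below the controls in both sexes, with male replicate 2 nearest to them (-1.89 ± 0.41, edgeR adjusted p = 0.0474). Of 27 further matrix glycoprotein genes 24 were positive and none passed (median 0.46). Mfap2, a microfibril protein near its detection limit, had 2.19 ± 0.72 (edgeR adjusted p = 0.176), and Bgn, biglycan, a proteoglycan related to decorin, 0.73 ± 0.26 (edgeR adjusted p = 0.196). Of 14 further proteases, inhibitors and cross-linkers none passed (median 0.32), with Loxl4, a cross-linking enzyme, at 1.24 ± 0.44 (edgeR adjusted p = 0.201) and Adamts1, a protease of proteoglycans, at 0.72 ± 0.29 (edgeR adjusted p = 0.258).

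Among 14 tested markers of quiescent stellate cells 2 rose, among them Rgs5, none fell and 12 did not pass, and the median was -0.001. Rgs5, a regulator of G protein signalling in pericytes, had 7.28 to 10.02 CPM in male controls, 15.4 to 25.8 CPM in the Ahr-null males, 11.2 to 12.2 CPM in female controls and 14.4 to 26.4 CPM in the Ahr-null females (1.12 ± 0.20, edgeR adjusted p = 0.02). Its Ahr-null livers lay above the controls in both sexes. Every library held the stellate genes Reln, Lrat and Lhx2, and Ngfr was at 0 in male control 1.

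**Figure D4:**
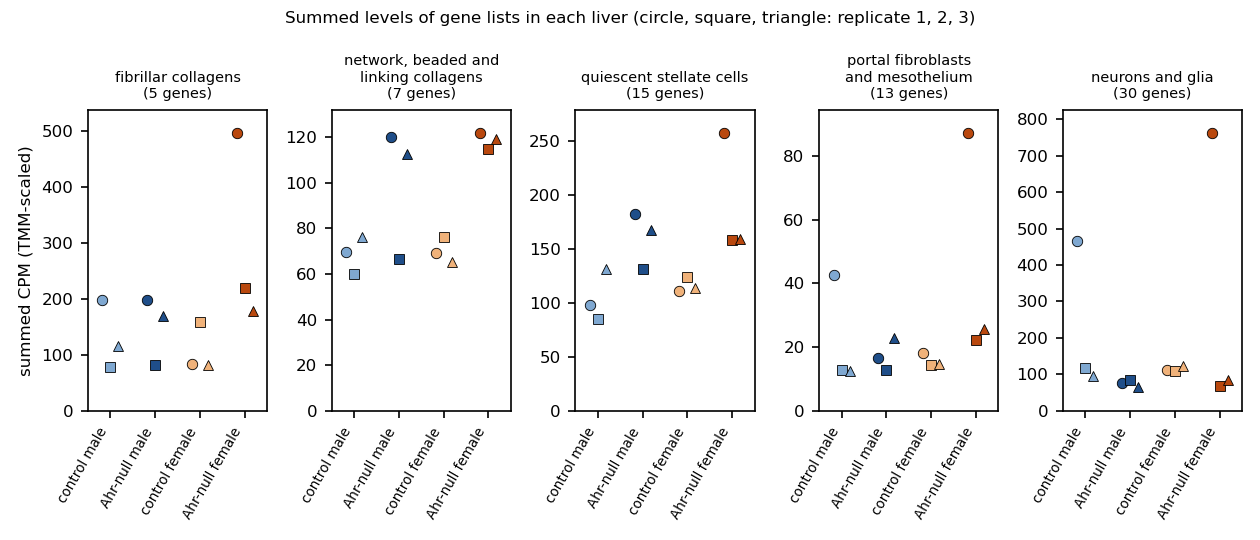
Summed CPM after TMM scaling of 5 gene lists in each of the 12 livers, by group, with replicates 1, 2 and 3 as circle, square and triangle. The network, beaded and linking collagens reach 115.0 to 122.0 CPM in the Ahr-null females and 59.9 to 76.3 CPM in controls, while the neural list stands out only in male control 1 and Ahr-null female 1. The neural list shares Thy1 with the portal fibroblast list and Gfap with the quiescent stellate list.

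Markers of other cell types were followed beside these results, since they also make matrix. The portal fibroblast and mesothelium list (13 genes) summed to 87.3 CPM in Ahr-null female 1 and 42.7 CPM in male control 1, and to 12.5 to 25.7 CPM elsewhere. Its member Gpm6a, which neurons also express, gave 28.9 and 17.1 CPM of these sums and 0 to 0.47 CPM in the other livers. The marker lists are not fully separate. Thy1 is on both the portal fibroblast and the neural list, and Gfap on both the quiescent stellate and the neural list. None of its 11 tested genes passed, nor did any of the 6 of smooth muscle (median -0.14), 12 of endothelium (0.02), 10 of cholangiocytes (0.93, all positive) or 11 of hepatocytes (0.34). The averaged differences with the smallest p in these lists were 1.17 ± 0.37 for Pi16 and 1.33 ± 0.43 for Dpt in portal fibroblasts, -0.995 ± 0.272 for Mylk and 0.73 ± 0.43 for Synpo2 in smooth muscle, 0.65 ± 0.19 for Kdr and 0.40 ± 0.25 for Vwf in endothelium, 1.95 ± 0.59 for Tspan8 and 1.505 ± 0.511 for Epcam in cholangiocytes, and -1.23 ± 0.32 for Cyp2e1 and 0.93 ± 0.29 for Ahsg in hepatocytes. Of 12 macrophage genes 1 rose, the scavenger receptor Marco (2.16 ± 0.34, edgeR adjusted p = 0.0148). The cholangiocyte sum was 279.1 CPM in Ahr-null female 1. In the other Ahr-null livers it was 73.8 to 119.4 CPM, within the 51.2 to 143.0 CPM of the controls. The hepatocyte sum was also highest in Ahr-null female 1, at 78320 CPM against 21390 to 44960 CPM elsewhere. The 15 tested neural genes gave no call (median 0.40, with -0.65 ± 0.30 for Slc1a2 and 0.52 ± 0.53 for Mag), and 9 of them were positive. This average covers opposite values in the sexes, as the 2 libraries with neural transcripts are a male control and an Ahr-null female. In males the median was -1.03 with 0 of 15 positive, and in females it was 1.76 with 14 of 15 positive. The part of these cell types in the levels of the matrix genes was not tested.

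Per kilobase of exon, the set spanned a wide range of levels. The length used was that of all annotated exons of a gene merged, not that of the transcript expressed in liver. The order of genes therefore also depends on the annotation. In controls Dcn led at 39.3 ± 10.3 CPM per kb (SD, n = 6), followed by Mmp14 at 23.6 ± 12.7, Sparc at 18.9 ± 8.87 and Fn1 at 12.1 ± 2.71 CPM per kb. The neighbours Mmp14 and Sparc did not differ beyond their spread, and their order differed by sex. Mmp14 had 14.8 ± 3.42 in male and 32.4 ± 12.6 CPM per kb in female controls (SD, n = 3), and Sparc had 16.5 ± 6.37 and 21.4 ± 11.8 CPM per kb. Acta2 (5.41 ± 6.62), Col1a1 (5.02 ± 3.82) and Des (4.12 ± 3.68) came next and did not differ from each other beyond their spread. On this scale the type VI collagen chains were unequal, with 2.19 ± 0.45 for Col6a1, 0.94 ± 0.28 for Col6a3 and 0.49 ± 0.13 CPM per kb for Col6a2. In that order their merged exon lengths were 4.38, 11.96 and 8.33 kb. Their mean levels in controls without division by length were 9.61, 11.25 and 4.065 CPM. In Ahr-null livers the first 4 were Dcn (52.8 ± 27.6), Sparc (28.9 ± 22.8), Mmp14 (16.4 ± 4.92) and Fn1 (13.2 ± 3.61 CPM per kb). Tagln was last in both genotypes, after Lox and Fbn1.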

How the data were processed

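RNA-seq counts of 12 livers in 4 groups of 3 were used. The authors deposited whole-number counts per gene for each library, not normalised, and values on a scale close to log2, variance-stabilised with DESeq2 according to the deposited table's name. The submitters' processing notes name STAR 2.7.8, Trim Galore 0.6.5, FastQC 0.11.8, DESeq2 1.28.1 and the build GRCm38, with no role or order. How reads were assigned to genes, whether strand was used and which annotation was taken is not given in the sources used here. The average RNA integrity number was 7 per the labels.

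Genes were tested with edgeR 4.0.16 (R 4.3.3): filterByExpr left 13641 genes, TMM scaled the libraries, and a robust quasi-likelihood model with 1 mean per group gave 6 contrasts, two-sided, with Benjamini-Hochberg adjustment over all genes tested and a threshold of 0.05. The averaged contrast is the mean of the differences within each sex. The SE of a fold change comes from it and its F statistic. The model had 8 residual degrees of freedom. Gene positions and exon lengths come from GENCODE for GRCm38, and promoter windows from RefSeq. Columns of other samples numbered 0.

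The genes of the set and all lists were chosen with earlier results of these data known. Full values were given for genes of the set with an adjusted p under 0.05 in any contrast and for the 3 with the smallest p in each role group (both TGF-beta genes). In other lists the called genes, or otherwise the 2 with the smallest p, were named, except for a result that is not reported here. Gpm6a, Myh11, Syn1, Snap25 and Ngfr, and the genes described by level only, were named after their values were seen. The 21 alternatives were other scalings, low-count filters and tests (DESeq2 1.42.0, limma 3.58.1), the fit without both libraries with neural transcripts, and 12 fits that each left out 1 library. Replicate numbers follow accession order and pair nothing. Replicates differed beyond sampling noise, with a chi-square of 22.1 to 265 per degree of freedom. The labels give 1 liver per sample and nothing on cages or litters, so each p-value rests on the spread between these livers.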

Additional observations from a re-analysis of the deposited data

How the results depend on the processing

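For the averaged genotype difference, in which edgeR called 2 genes of the set and 144 in all (72 higher), library size alone called 12 and 1053 (986 higher), DESeq2 4 and 664, and the fit without both neural libraries 3 and 432. With limma-voom 1 and 119 were called, and with no filter beyond 1 count 1 and 116. Leaving out 1 library gave 0 to 4 genes of the set and 6 to 663 in all. In females (0 and 22) library size alone called 2 and 117, DESeq2 4 and 491, limma-voom 1 and 35, limma on the variance-stabilised values 1 and 46, the fit without both neural libraries 1 and 235, and leaving out 1 library 0 to 1 and 3 to 153. In males (0 and 5) none of the set was called under any alternative, while over all genes library size alone called 12, DESeq2 106, limma-voom 3, limma on the variance-stabilised values 9, the fit without both neural libraries 27 and leaving out 1 library 0 to 57. For the difference between the sexes (1 gene) the numbers over all genes were 3 with library size alone, 0 with at least 1 CPM in 6 libraries, 20 with DESeq2, 4 with limma on the variance-stabilised values, 4 without both neural libraries and 0 to 2 leaving out 1 library. For the sex difference in controls (48) they were 142 with DESeq2, 79 without both neural libraries and 19 to 101 leaving out 1 library. In Ahr-null livers (38) they were 226, 110 and 11 to 90, and DESeq2 called 1 gene of the set.

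The sign of Acta2 turned to 0.257 with library size alone, 0.137 with limma-voom, 0.105 with limma on the variance-stabilised values and 0.663 without both neural libraries, and ranged from -0.475 to 0.66 leaving out 1 library. That of Timp2 turned to -0.06 without both neural libraries and that of Mmp14 to 0.101 with library size alone. Leaving out 1 library moved Timp2 between -0.43 and 0.557, Des between -0.198 and 0.691, Lum between -0.138 and 1.37 and Fbln1 between -0.289 and 2.154. The cause of these changes was not tested. Of the values for single genes under the alternatives, 733 kept their direction and side of the threshold, 22 passed it newly, 21 lost it and 19 reversed. No paired analysis was possible because the replicate numbers follow accession order. Depth limits Tagln, Timp1, Lox and Fbln1 most.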
